A study of Mus musculus and Mus musculus
Rattus norvegicus with 30 samples.

Results

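The Cdx family of the mouse and the rat comprises 3 homeobox genes, Cdx1, Cdx2 and Cdx4, and the rows of these 3 genes were followed through every RNA-seq table of a study that induced Cdx2 in stem cells. They are 3 of 19919 genes counted in mouse embryonic stem cells (mESC), 3 of 34923 genes counted on the mouse genome of a mouse-rat hybrid stem cell (RMES) and 3 of 25245 genes counted on its rat genome. The members were taken by name and not by their measured values. In mm10 (GRCm38) the GENCODE annotation places Cdx1 (ENSMUSG00000024619) on the minus strand at chr18:61018862-61036199, Cdx2 (ENSMUSG00000029646) on the minus strand at chr5:147300805-147307270 and Cdx4 (ENSMUSG00000031326) on the plus strand at chrX:103321398-103330592, each as a protein-coding gene of 3 exons.

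In mESC, 10 conditions were sequenced with 2 RNA-seq libraries each: cells labelled WT, cells with overexpressed mouse Cdx2 (mCDX2 OE in the labels, here mCdx2-OE), cells with overexpressed rat Cdx2 (rCDX2 OE, here rCdx2-OE) and cells with 7 rat Cdx2 mutants, rCdx2_R1-OE, rCdx2_R2-OE, rCdx2_R3-OE, rCdx2_R12-OE, rCdx2_R13-OE, rCdx2_R23-OE and rCdx2_R123-OE. The digits name which of 3 amino acids found only in the mouse DNA-binding domain were placed into the rat protein, so R123 has the mouse state at all 3. RMES, allodiploid cells in which a mouse and a rat haploid set share 1 nucleus, were sequenced as 2 WT libraries, 1 mCdx2-OE library and 1 rCdx2-OE library, and each library was counted on both genomes. Flag-tagged Cdx2 was delivered by lentivirus and switched on with doxycycline, mESC were kept with LIF and inhibitors of the Mek and Gsk3 kinases, and each construct was carried by its own transduced cells. Whether the WT cells were parental or transduced and left without doxycycline is not given in the labels, which also do not say that replicates were separate cultures, so p-values measure the spread between these libraries, which may be technical. ATAC-seq of WT and mCdx2-OE mESC and anti-Flag ChIP-seq of mCdx2-OE and rCdx2-OE in mESC and RMES had 1 library per condition.

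Cdx proteins are homeodomain transcription factors of the ParaHox group that bind AT-rich DNA and set the posterior identity of the embryo by acting on Hox genes. Cdx2 is also a defining factor of the trophectoderm, the layer that forms the placenta, and it maintains the intestinal epithelium together with Cdx1. In the embryo Wnt, Fgf and retinoic acid signals switch the family on, and its members are known to regulate each other.

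RNA-seq depth was 74960057 and 94686029 counts for the WT mESC libraries, 12698443 to 24315929 for the 18 induced mESC libraries, 36166038 to 41418817 on the mouse genome of RMES and 29453412 to 35249756 on its rat genome. Levels are CPM, the counts scaled to a common library size, here after TMM scaling within a table. The summed level of 6 fibroblast markers was 31.8 and 32.2 CPM in the WT mESC libraries against 1.17 to 4.27 CPM in the induced ones, with Lum at 0 in every induced library. The summed level of 8 embryonic stem cell markers was 5058 and 5189 CPM in WT against 3227 to 5306 CPM in the induced libraries, so the pluripotency genes that define mESC were present in each. The libraries of mCdx2-OE and rCdx2-OE, 4 in all, stood apart from the 14 mutant libraries along the first principal component of the induced cells, which held 60.7% of the variance of 11296 genes. Trophoblast stem cell markers summed to 586 to 814 CPM in those 4 libraries and to 161 to 290 CPM in the mutants. Construct, transduced line and handling cannot be told apart here. In RMES the trophoblast sum went from 165 and 173 CPM in WT to 958 and 1098 CPM on the mouse genome, and the fibroblast sum went from 21.8 and 26.4 to 7.08 and 9.49 CPM there but was 19.8 and 25.7 against 23.6 and 29.9 CPM on the rat genome.

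The family was expressed unevenly at the start. Divided by gene length, the WT mESC level was 33.2 ± 1.14 CPM per kb for Cdx1 (SD, n = 2), 0.569 ± 0.0469 for Cdx2 and 0.0667 ± 0.0126 for Cdx4. On the mouse genome of WT RMES the corresponding levels were 179.8 ± 13.3 CPM per kb for Cdx1, 56.6 ± 0.779 for Cdx2 and 1.82 ± 0.161 for Cdx4. On the rat genome Cdx2 was the highest of the family at 218 ± 4.55 CPM per kb, against 86.1 ± 4.22 for Cdx1 and 3.12 ± 0.503 for Cdx4. Cdx1 was therefore the leading member of the mouse genome in both cell types, Cdx2 led on the rat genome, and Cdx4 was lowest in each table. The tables were normalised separately, so the higher level of each member in WT RMES than in WT mESC was not tested.

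Cdx1, a family member known as a direct target of Wnt and retinoic acid signals, fell in mESC with every Cdx2 construct. Its level was 59.6 and 56.7 CPM in the WT libraries, 30.4 and 31.5 CPM in mCdx2-OE and 29.2 and 22.6 CPM in rCdx2-OE. In the 14 mutant libraries it ranged from 11.7 to 16.3 CPM with a median of 15.2. Every induced library was below both WT libraries, and every mutant library was below the 4 libraries of the intact proteins. Averaged over the 9 constructs the log2 fold change from WT was -1.78 (SE 0.074, edgeR quasi-likelihood test, adjusted p = 3.8e-12), in a comparison that called 26.7% of 16000 genes at an adjusted p under 0.05 and more than 2-fold. The decrease in mCdx2-OE was smaller than 2-fold, with a log2 fold change of -0.91 (SE 0.12, edgeR adjusted p = 3.6e-06), and therefore missed that call, which 33.4% of genes met. In rCdx2-OE it was -1.16 (SE 0.12, edgeR adjusted p = 2.4e-07), called beside 34.5% of genes. The 7 mutants gave -1.84 to -2.14 against WT and were called in 7 of 7 comparisons, in which 23.2% (R1), 23.4% (R2), 25.6% (R3), 23.7% (R12), 27.8% (R13), 28.7% (R23) and 28.9% (R123) of genes were called. Over the mean of the constructs, 13.5% of genes were called lower and 13.2% higher. All 9 comparisons share the WT libraries. Loss of a cell type and loss of transcript per cell cannot be told apart in bulk RNA, and the part that the lower fibroblast markers have in these differences was not tested.

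**Figure D1:**
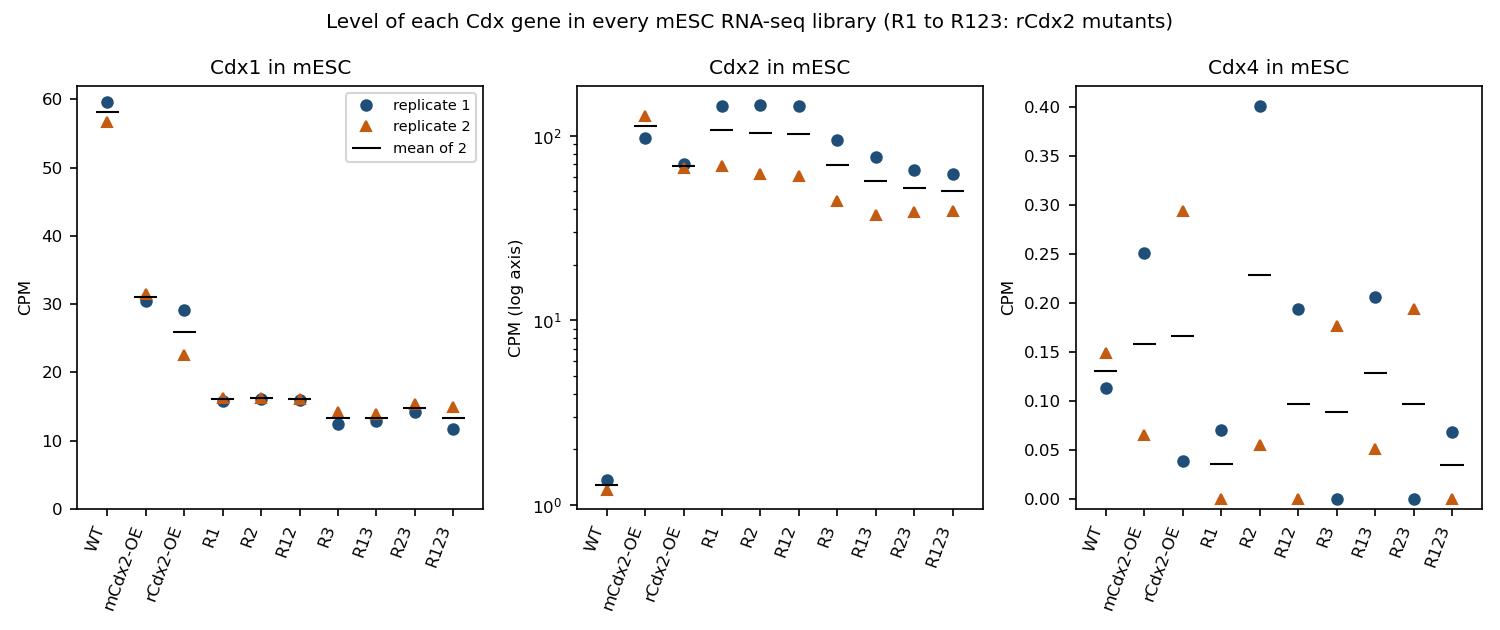
Level of Cdx1, Cdx2 and Cdx4 in the 20 mESC RNA-seq libraries, in CPM (y axis, log scale for Cdx2 only) by condition (x axis); circles are replicate 1, triangles replicate 2 and bars the mean of 2. Cdx1 drops from 58.2 CPM in WT to between 11.7 and 16.3 CPM in the mutants, Cdx2 rises from 1.29 CPM, and Cdx4 stays at or under 0.401 CPM throughout.

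Ordered by mean, Cdx1 stood at 58.2 ± 2.00 CPM in WT (SD, n = 2), 31.0 ± 0.809 in mCdx2-OE and 25.9 ± 4.67 in rCdx2-OE. The 3 mutants without change 3 followed and overlapped each other, with 16.2 ± 0.0946 CPM in R2, 16.02 ± 0.251 in R1 and 16.02 ± 0.136 in R12. R23 lay below them at 14.8 ± 0.837 CPM, within the range of R123. R13, R123 and R3 overlapped at the bottom, with 13.3 ± 0.710, 13.3 ± 2.303 and 13.2 ± 1.23 CPM. The intact proteins themselves were not told apart by Cdx1: mCdx2-OE against rCdx2-OE gave a log2 difference of 0.25 (SE 0.12, edgeR adjusted p = 0.94), in a comparison that called 3 genes (0.0188%).

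Against rCdx2-OE, Cdx1 was lower in 7 of 7 mutants, by a log2 fold change of -0.69 (SE 0.13, edgeR adjusted p = 0.00041) in R2 to -0.98 (SE 0.13, edgeR adjusted p = 1.4e-05) in R3. These comparisons share the rCdx2-OE libraries and called 44.0% (R1), 41.8% (R2), 43.8% (R3), 43.8% (R12), 45.2% (R13), 45.0% (R23) and 46.3% (R123) of all genes, with 23.7%, 22.6%, 22.8%, 23.2%, 23.5%, 23.5% and 24.1% called lower in the same order. The mutants thus differed from the intact rat protein in much of the transcriptome. Since rCdx2-OE itself had 29.2 and 22.6 CPM, the differences were -0.86 to -1.32 within replicate 1 and -0.48 to -0.71 within replicate 2. R123 carries the mouse residues at all 3 positions, and its 13.3 CPM of Cdx1 lay below the 31.0 CPM of mCdx2-OE with no overlap of libraries, a difference that was not tested. The 8 rat constructs form a full set of combinations of the 3 changes, and an additive edgeR model was fitted to their 16 libraries. Change 3 had a log2 effect of -0.43 on Cdx1 (SE 0.11, edgeR adjusted p = 0.0079) beside calls on 37.5% of 14394 genes, 18.8% lower and 18.7% higher. Changes 1 and 2 gave -0.24 (SE 0.11, edgeR adjusted p = 0.39) and -0.15 (SE 0.11, edgeR adjusted p = 0.57), and edgeR called 0 genes for either, with 1854 and 1473 genes at an unadjusted p under 0.05 and 22 and 1 calls by DESeq2. Against rCdx2-OE, R1, R2 and R12 lay further down than these effects, at -0.70, -0.69 and -0.70. The additive model thus fitted Cdx1 poorly, and its effects and standard errors for Cdx1 hold that misfit. Within the 7 mutants, changes 1 and 2 gave -0.040 and 0.043. In the 7 mutants alone the effect of change 3 on Cdx1 was -0.24 (SE 0.066, edgeR adjusted p = 0.0049), with 52.8% of genes called, against 0.0281% (4 genes) for change 1 and 0 for change 2 there. Without replicate 1 the effect was -0.28 (edgeR adjusted p = 0.21) and without replicate 2 it was -0.57 (edgeR adjusted p = 0.091).

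**Figure D2:**
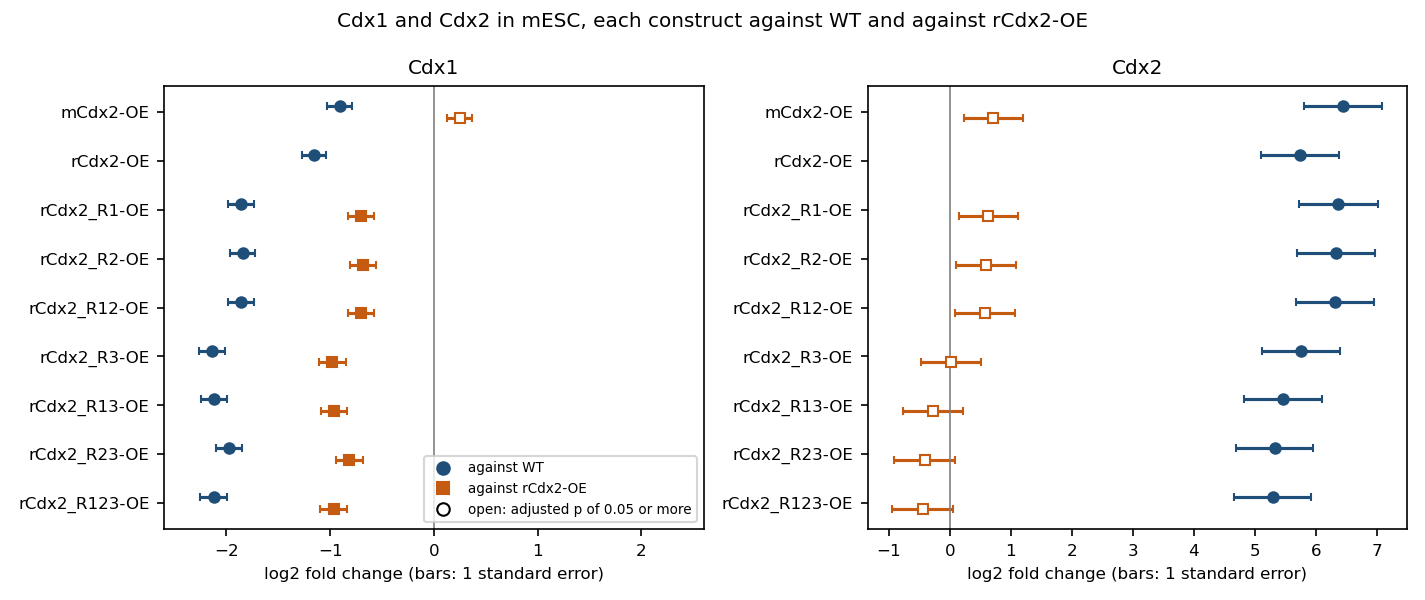
Log2 fold changes of Cdx1 (left) and Cdx2 (right) in mESC for each construct, against WT (circles) and against rCdx2-OE (squares), with bars of 1 standard error; open symbols have an edgeR adjusted p of 0.05 or more. Cdx1 lies between -0.91 and -2.14 against WT, and its 7 mutant values against rCdx2-OE are filled, whereas none of the Cdx2 values against rCdx2-OE is.

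Cdx2, the induced factor, was counted as the sum of the resident gene and the transgene in mESC, so its level there is a check of the induction and not a response. It stood at 1.36 and 1.21 CPM in WT, 97.9 and 127 CPM in mCdx2-OE and 70.4 and 67.0 CPM in rCdx2-OE. The mutants ranged from 61.9 to 147 CPM in replicate 1 and from 37.2 to 68.8 CPM in replicate 2. Every induced library exceeded WT, and the log2 fold change averaged over the 9 constructs was 5.89 (SE 0.59, edgeR adjusted p = 1.5e-07). The level was not constant among libraries of a mutant, since replicate 1 was 1.59 to 2.39 times replicate 2 in 7 of 7 mutants. In mCdx2-OE the same ratio was 0.768 and in rCdx2-OE it was 1.05. Reads of a rat coding sequence were aligned to the mouse genome in 8 of the 9 constructs, and the share lost to mismatches was not measured.

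Within each replicate number, counted Cdx2 and Cdx1 were both lower in the mutants with change 3. Each construct had its own transduced cells, so the amino acid and the transduced line cannot be told apart. Within replicate 1, Cdx2 was 145 to 147 CPM in the 3 mutants without change 3 and 61.9 to 94.4 CPM in the 4 mutants with it. Within replicate 2 the ranges were 60.6 to 68.8 CPM and 37.2 to 44.3 CPM. The sets did not overlap within either replicate, and the additive effect of change 3 on the counted Cdx2 was -0.74 (SE 0.26, edgeR adjusted p = 0.036). Cdx2 lost this call in 1 fit without a replicate number. The additive fit took the 2 libraries of each construct as separate replicates of the change, so its p does not measure the spread between transduced lines. Cdx1 was 15.8 to 16.1 CPM without change 3 and 11.7 to 14.2 CPM with it in replicate 1, and 16.1 to 16.3 against 13.8 to 15.4 CPM in replicate 2. The part that the lower Cdx2 transcript has in the Cdx1 difference was not tested. Cell-state markers differed with change 3 too, where 18.8% of all genes were lower and 18.7% higher. With it, 5 of 7 trophoblast stem cell markers were lower (median log2 effect -1.28) and 5 of 8 embryonic stem cell markers higher (median 0.25). Of 24 upstream signals and factors, 13 were lower and 3 higher (median -0.25). Wnt8a was among the lower ones (-3.27, SE 0.42, edgeR adjusted p = 2.3e-05). The fit counts rCdx2-OE among the constructs without change 3, but the mutants without it also differed from rCdx2-OE. Against rCdx2-OE the median trophoblast log2 fold change was -2.08 in R1, -1.49 in R2 and -2.13 in R12. With change 3 it was -2.34 (R23) to -2.86 (R13). The gap between rCdx2-OE and all mutants thus enters these effects of change 3, and its part was not tested. The part of these markers and signals in the Cdx1 difference was not tested. Because the mutants split into sets by change 3 and the intact proteins stood apart, no correlation between Cdx1 and Cdx2 over libraries is given.

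Cdx4, the X-linked member that acts in the posterior embryo and in blood formation, was at the edge of detection in mESC. WT libraries held 8 and 13 counts and induced libraries held 0 to 6 counts, with 5 of 18 at 0. Pooled, WT gave 0.124 CPM by raw totals (95% Poisson interval 0.0766 to 0.189) and induced cells 0.111 (0.0766 to 0.154). The rate ratio of induced over WT was 0.893 with an exact 95% interval of 0.504 to 1.62, and an exact two-sided permutation test over 190 divisions of the 20 libraries gave p = 0.84, where 0.0053 was the smallest possible. Intervals cover counting error only. A change of Cdx4 was not detectable at this depth, and the gene did not pass the filter on low counts for the edgeR fit.

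In RMES, Cdx1 and Cdx4, which no transgene carries, fell on both genomes. Mouse Cdx1 went from 331 and 298 CPM in WT to 21.8 CPM in mCdx2-OE and 18.2 CPM in rCdx2-OE. Rat Cdx1 went from 72.7 and 67.8 CPM to 3.97 and 2.53 CPM. The induced libraries thus kept 6.36% of the WT level on the mouse genome and 4.63% on the rat genome, and no library of either group overlapped the other. With mCdx2-OE and rCdx2-OE taken as replicates of induction, the log2 fold change of Cdx1 was -3.97 on the mouse genome (SE 0.088, edgeR adjusted p = 2.2e-12), where 44.5% of 16887 genes were called, 28.3% higher and 16.1% lower. On the rat genome it was -4.43 (SE 0.13, edgeR adjusted p = 2.3e-13), where 42.5% of 14627 genes were called, 28.3% higher and 14.2% lower. The share of Cdx1 counts on the mouse genome was 84.4% and 84.0% in WT, 86.0% in mCdx2-OE and 88.7% in rCdx2-OE, while the mouse share of all counts was 56.1% and 56.3% in WT and 50.7% and 50.6% in the induced libraries. Shares are of counts not divided by gene length, which differs between the mouse and rat Cdx1 models. Per kb, WT Cdx1 was 179.8 CPM on the mouse and 86.1 CPM on the rat genome.

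Cdx4 was low but measurable in WT RMES. Mouse Cdx4 stood at 3.79 and 3.35 CPM in WT (243 counts in both libraries), 0.381 CPM in mCdx2-OE (16 counts) and 0.430 CPM in rCdx2-OE (18 counts). Rat Cdx4 had 90 and 124 counts in WT, 44 in mCdx2-OE and 27 in rCdx2-OE, or 3.29, 4.14, 1.17 and 0.705 CPM. Both induced libraries were below both WT libraries on each genome. The log2 fold change was -3.12 on the mouse genome (SE 0.27, edgeR adjusted p = 2.4e-07) and -1.98 on the rat genome (SE 0.27, edgeR adjusted p = 6.8e-06). Induced cells kept 11.4% of the WT level on the mouse genome and 25.3% on the rat genome.

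**Figure D3:**
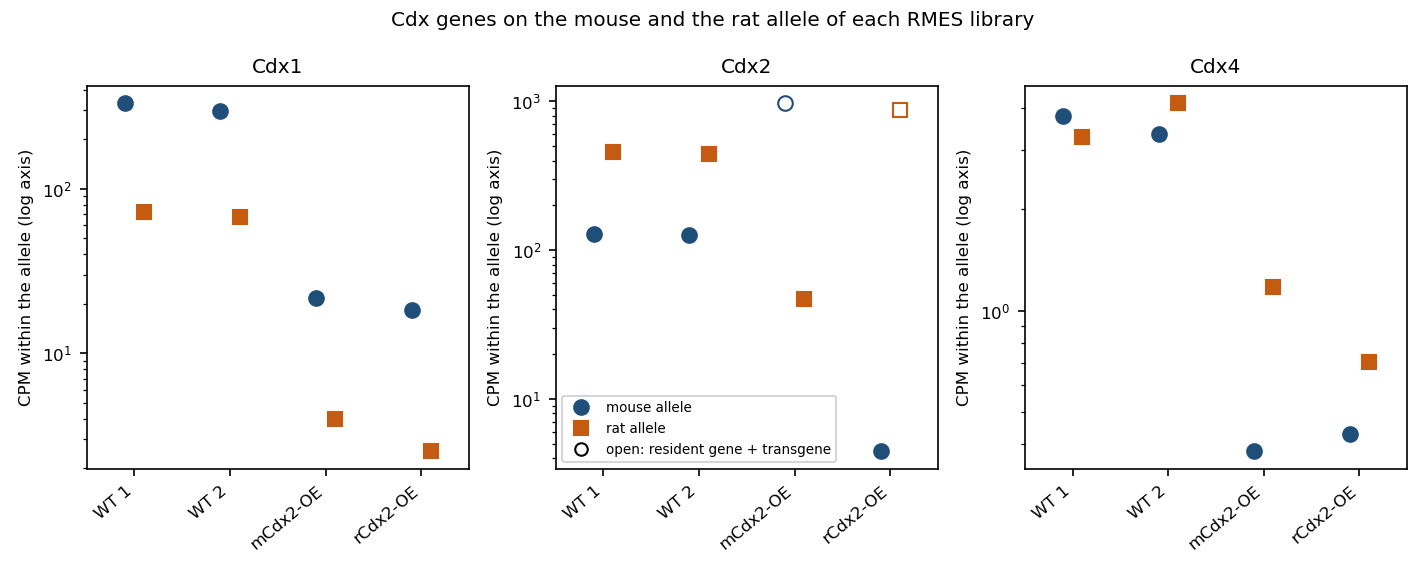
Level of each Cdx gene in the 4 RMES libraries, in CPM within the mouse genome (circles) or the rat genome (squares), on log axes; open symbols hold resident gene and transgene together. Each filled symbol of an induced library lies below the WT symbols of its genome. Mouse Cdx2 in rCdx2-OE is at 4.45 CPM.

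The response of the genomes was compared in an edgeR fit with the library as a block. Rat minus mouse, the log2 response of Cdx1 differed by -0.43 (SE 0.093, edgeR adjusted p = 0.00043) and that of Cdx4 by 1.16 (SE 0.42, edgeR adjusted p = 0.022). Leaving out 1 library gave -0.65 (without mCdx2-OE) to -0.28 (without rCdx2-OE, edgeR adjusted p = 0.049) for Cdx1. Cdx1 thus fell slightly further on the rat genome, and Cdx4 fell less there. The same test called 62.0% of 13629 genes with a shared symbol, so an unequal response was common. The Cdx4 difference was 0.91 without WT replicate 1 (edgeR adjusted p = 0.13) and 0.68 without the mCdx2-OE library (edgeR adjusted p = 0.32), so its call rests on those libraries.

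Cdx2 of the genome without the transgene reports the resident gene in RMES, which cannot be seen in mESC. Resident mouse Cdx2 was 129 and 127 CPM in WT and 4.45 CPM when the rat protein was induced, which is 3.48% of WT or 28.7-fold lower. Resident rat Cdx2 was 453 and 440 CPM in WT and 47.2 CPM when the mouse protein was induced, which is 10.6% of WT or 9.46-fold lower. Each lone induced library lay far outside the WT pair. In the edgeR fit with 3 groups the log2 fold changes were -4.87 for the mouse gene and -3.25 for the rat gene. The fit had 1 residual degree of freedom and assumed that the lone library varies like WT, so only these effect sizes are given.

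How many reads were set on the wrong genome was not measured. In rCdx2-OE, 186 of 33866 Cdx2 counts were on the mouse genome, a share of 0.549% (95% Wilson interval 0.476 to 0.634), against 25.3% and 25.6% in WT. In mCdx2-OE, 1770 of 42360 Cdx2 counts were on the rat genome, a share of 4.18% (3.99 to 4.37), against 74.7% and 74.4% in WT. Per library total of both genomes, the summed Cdx2 level was 247 and 241 CPM in WT, 592 in mCdx2-OE and 474 in rCdx2-OE, so total Cdx2 was 2.43-fold and 1.94-fold of the WT mean while the resident copy of the other species was lower.

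The loci were then searched for Cdx2 binding and open chromatin, from 50 kb before the start to 50 kb after the end of each gene. Anti-Flag ChIP gave 0 peaks around Cdx1 in mESC and in RMES on the mouse genome, 3 and 2 peaks around Cdx2, and 12 and 9 peaks around Cdx4. Of 21755 protein-coding genes, 11.5% had 0 mESC peaks in such a window and 17.3% had 0 RMES peaks, with medians of 3 and 2, which are the numbers at Cdx2. At least as many peaks as at Cdx4 were found at 6.99% of genes in mESC and 8.30% in RMES. Peaks were called on merged libraries, so a peak here is a shared region with a count in each library. Between rCdx2-OE and mCdx2-OE, 0 of the 15 family peaks in mESC and 0 of the 11 in RMES differed more than 2-fold, where 0.912% and 2.08% of all peaks did. No test is possible with 1 library per condition.

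**Figure D4:**
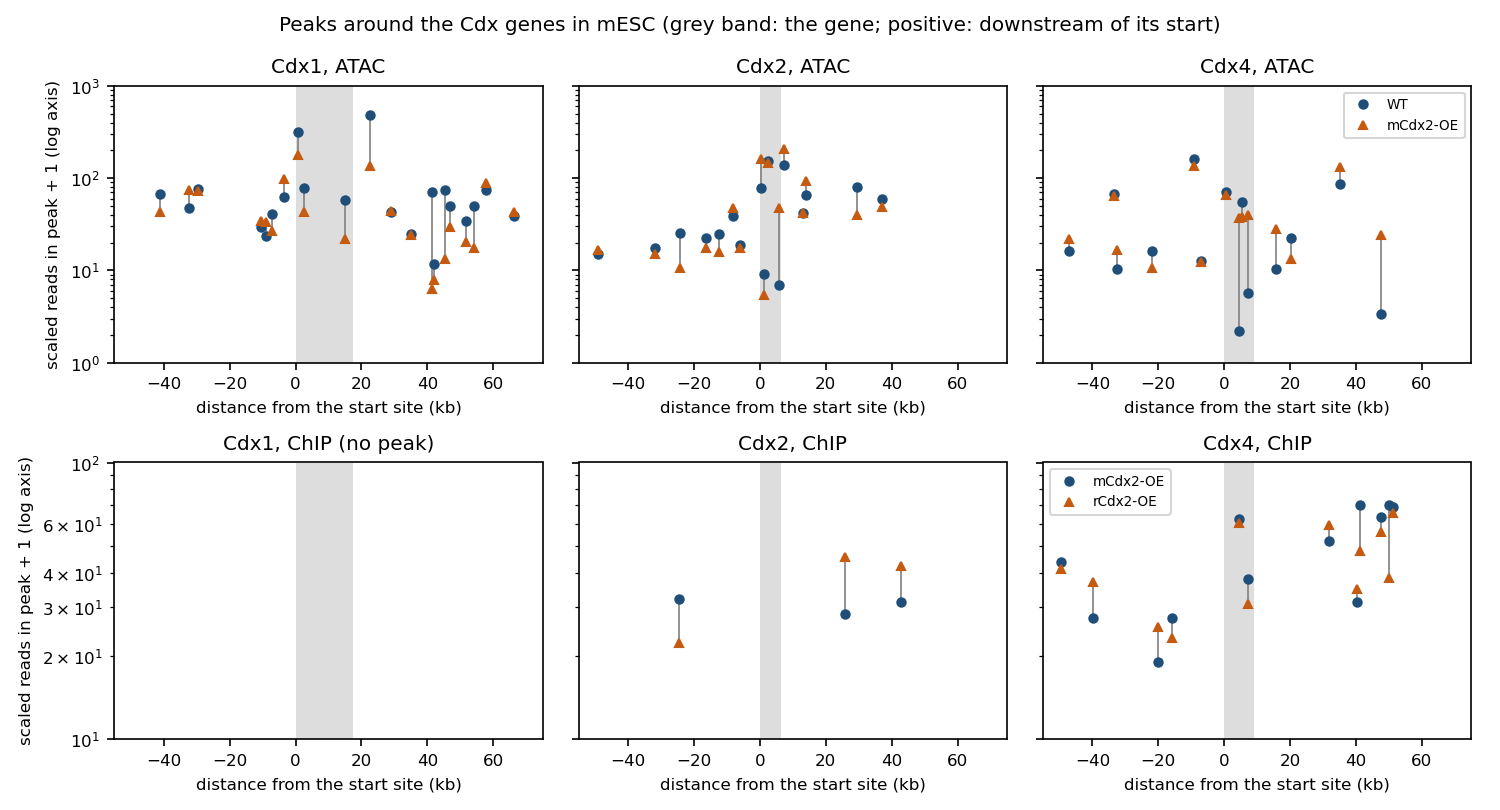
Reads in ATAC peaks (top, WT and mCdx2-OE) and anti-Flag ChIP peaks (bottom, mCdx2-OE and rCdx2-OE) in mESC, scaled to equal totals with 1 added, on log axes, against distance from the start site in kb; grey bands mark the genes. The Cdx1 window has no ChIP peak and 5 ATAC peaks past 2-fold lower, and the Cdx4 gene holds a pair of ATAC peaks with 1 and 4 reads in WT and 41 and 45 in mCdx2-OE, at the places of 2 ChIP peaks.

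Windows of 300 bases centred on 4 mESC ChIP peaks are shown, read 5′ to 3′ from the plus strand of the RefSeq GRCm38 genome, with the Cdx core motif TTTAT or its reverse complement in capitals. Those of Cdx4 lie in its first and second introns and are shown because they coincide with ATAC peaks that were higher in mCdx2-OE, and those downstream of Cdx2 because peaks were called there in mESC and in RMES.
Cdx4 intron, 4.6 kb after the start, chrX:103325887-103326186: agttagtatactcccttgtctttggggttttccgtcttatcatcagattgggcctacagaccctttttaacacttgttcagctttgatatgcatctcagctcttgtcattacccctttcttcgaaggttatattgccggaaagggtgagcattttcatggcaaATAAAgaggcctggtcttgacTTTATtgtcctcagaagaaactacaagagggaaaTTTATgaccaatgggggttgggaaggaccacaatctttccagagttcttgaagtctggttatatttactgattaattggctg
Cdx4 intron, 7.3 kb after the start, chrX:103328556-103328855: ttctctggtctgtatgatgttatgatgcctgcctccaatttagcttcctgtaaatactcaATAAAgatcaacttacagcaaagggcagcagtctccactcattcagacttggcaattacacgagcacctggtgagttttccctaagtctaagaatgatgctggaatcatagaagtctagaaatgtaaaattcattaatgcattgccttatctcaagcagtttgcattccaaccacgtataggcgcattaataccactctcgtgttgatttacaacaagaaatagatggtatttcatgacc
Cdx2 downstream, 42.9 kb after the start, chr5:147264192-147264491: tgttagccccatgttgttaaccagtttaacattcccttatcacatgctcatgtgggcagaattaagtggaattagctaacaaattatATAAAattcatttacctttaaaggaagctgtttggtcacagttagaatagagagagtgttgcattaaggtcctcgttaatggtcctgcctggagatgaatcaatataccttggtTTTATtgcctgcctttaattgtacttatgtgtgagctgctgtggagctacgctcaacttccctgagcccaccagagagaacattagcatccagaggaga
Cdx2 downstream, 25.7 kb after the start, chr5:147281374-147281673: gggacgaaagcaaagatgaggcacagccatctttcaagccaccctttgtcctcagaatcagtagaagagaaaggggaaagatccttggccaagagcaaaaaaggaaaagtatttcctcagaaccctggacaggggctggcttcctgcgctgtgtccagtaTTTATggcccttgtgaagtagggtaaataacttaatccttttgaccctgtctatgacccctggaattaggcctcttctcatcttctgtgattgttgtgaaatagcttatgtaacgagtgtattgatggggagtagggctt

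TTTAT was matched on both strands 3 times in the Cdx4 window at 4.6 kb, 1 time in that at 7.3 kb, 2 times in the Cdx2 window at 42.9 kb and 1 time in that at 25.7 kb, where the match extends to the longer form TTTATGG. Of all 91665 mESC ChIP peaks, 95.2% held TTTAT and 17.8% held TTTATGG in a window of this length, against 43.9% and 4.72% of ATAC peaks. The 250 bases before the GENCODE start of Cdx2 and of Cdx4 held neither motif. Of 32851 promoters in the RefSeq promoter table (GRCm38.p6), 37.3% held TTTAT and 2.43% held TTTATGG. A match is a description of the letters and not of a site.

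Inside Cdx4, the ChIP peak at 4.6 kb had 65 reads in mCdx2-OE and 56 in rCdx2-OE in mESC and was not called in RMES. The peak at 7.3 kb had 39 and 28 reads in mESC, and the overlapping RMES peak had 48 and 32. Both coincided with ATAC peaks. The ATAC peak at 4.5 kb had 1 read in WT and 41 in mCdx2-OE, a log2 ratio of 4.07 after scaling (95% counting interval 2.36 to 10.3). That at 7.2 kb had 4 and 45 reads, a log2 ratio of 2.81 (1.598 to 4.99). A further bound peak 47.7 kb downstream, nearer to the start of Chic1, had 2 and 27 ATAC reads (log2 ratio 2.87, interval 1.32 to 6.43). The promoter peak of Cdx4 held 59 and 75 reads, a log2 ratio of -0.09 (interval -0.60 to 0.43), so no change was detectable there. Among the 14 ATAC peaks of the window 4 were past 2-fold higher and 0 past 2-fold lower, where 16% and 21.2% of all 122350 peaks were, 37.1% in all. Cdx4 transcript in the same cells was 6 and 1 counts in mCdx2-OE and 8 and 13 in the deeper WT libraries. The means were 0.158 CPM in mCdx2-OE and 0.131 CPM in WT, from too few counts to show a change.

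Around Cdx2, the ChIP peaks lay 42.9 kb downstream, 5.6 kb from the start of the ParaHox gene Pdx1, with 32 and 39 reads in mCdx2-OE and rCdx2-OE, 25.7 kb downstream with 29 and 42 reads, and 24.6 kb upstream inside the receptor gene Flt3 with 33 and 20 reads. None overlapped an ATAC peak. The downstream peaks were also called in RMES, with 27 and 16 reads and with 24 and 13 reads, and the peak inside Flt3 was not. The ATAC peak over the start and first exon held 65 reads in WT and 186 in mCdx2-OE (log2 ratio 1.07, interval 0.66 to 1.51) and a peak in the last exon's untranslated part held 5 and 53 reads (log2 ratio 2.77). The large peak in the first intron did not move past 2-fold, with 131 and 165 reads (log2 ratio -0.10). The peaks past 2-fold lower were 1 at 29.6 kb downstream with 68 and 45 reads (log2 ratio -1.02) and 1 at 24.4 kb upstream with 21 and 11 reads (log2 ratio -1.28). In all, 2 of 16 ATAC peaks were past 2-fold higher and 2 lower, where 16% and 21.2% of all ATAC peaks were, and the median log2 ratio was -0.10. The first-exon peak spans coding sequence that the integrated mouse transgene also carries. No ATAC peak overlapped coding exons 2 and 3, which the transgene carries too, and the part of transgene reads in the first-exon peak was not tested.

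At Cdx1, where no ChIP peak was called, the promoter ATAC peak held 271 reads in WT and 204 in mCdx2-OE, a log2 ratio of -0.84 (95% counting interval -1.12 to -0.58). Of 21 ATAC peaks in the window, 0 were past 2-fold higher and 5 past 2-fold lower, where 16% and 21.2% of all ATAC peaks were, so the number of lower peaks was near the share over all peaks. The median log2 ratio was -0.60 against -0.14 over all ATAC peaks. Of the 5 lower peaks 1 lay in the first intron (48 and 24 reads) and 4 downstream of the gene, among them 1 of 59 and 6 reads (log2 ratio -3.50) and 1 of 409 and 153 reads (log2 ratio -1.85) that is 0.665 kb from the start of the amino acid transporter gene Slc6a7.

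Of 28 listed signals and factors that act upstream of Cdx genes in embryos, 26 were tested in mESC, and over the mean of the constructs 4 rose and 8 fell (median log2 fold change -0.33, against -0.02 over all genes), where 13.2% of all genes were called higher and 13.5% lower. The largest decreases were in Wnt8a (-3.78, edgeR adjusted p = 1.2e-11), Bmp4 (-3.50, edgeR adjusted p = 1.2e-12), the Wnt transducer Lef1 (-3.01, edgeR adjusted p = 1.9e-12), the retinoic acid receptor gene Rarg (-2.69, edgeR adjusted p = 1.0e-15) and Wnt3a (-2.41, edgeR adjusted p = 3.6e-06). In RMES 27 were tested, of which 4 rose and 11 fell on the mouse genome (median -0.50) and 6 rose and 12 fell on the rat genome (median -0.92), against medians of 0.08 and 0.07 over all genes. Of all genes 28.3% were called higher and 16.1% lower on the mouse genome, and 28.3% and 14.2% on the rat genome. The Wnt target Sp5 fell by 4.84 on the log2 scale on the mouse genome and had a log2 fold change of -4.79 on the rat genome. T, the Brachyury gene of the primitive streak, fell to at most 3 counts in an induced library on the mouse genome (fitted log2 fold change -8.48, SE 0.34). It passed the filter on low counts only through the WT libraries, which favours a fall, so no conclusion is drawn from its test on that genome. Lef1 was again among the lowest there (-4.44, edgeR adjusted p = 2.7e-10), but Wnt8a, lowest of the list in mESC, rose on that genome (log2 fold change 2.66, edgeR adjusted p = 5.0e-06). In mESC Wnt8a stood at 8.67 and 8.51 CPM in WT, 4.48 to 7.18 CPM with the intact proteins and 0 to 1.14 CPM in the mutants, the same order of sets as Cdx1. Gata3, an activator of trophoblast genes, rose on the rat genome by a log2 fold change of 6.44 (edgeR adjusted p = 4.0e-11).

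Of genes known as Cdx targets in the posterior embryo, 21 were tested in mESC, of which 13 rose and 3 fell (median log2 fold change 3.40). Among them were the Hox genes Hoxa9 (10.1 to 23.5 CPM in induced cells, 2 counts in each WT library), Hoxa10 (log2 fold change 5.92, edgeR adjusted p = 5.5e-12) and Hoxa7 (4.42, edgeR adjusted p = 2.9e-13). Hoxa9 passed the filter on low counts only through induced libraries, which favours a rise, so no conclusion is drawn from its test. Any other listed gene near 0 in WT would enter the count of 13 in the same way. On the mouse genome of RMES 5 of 20 rose and 8 fell (median -0.33), and the same Hoxa10 and Hoxa9 fell, with -4.65 (edgeR adjusted p = 4.9e-11) and -3.65 (edgeR adjusted p = 1.8e-11). On the rat genome 10 of 16 rose and 2 fell (median 1.65). Among the 10 was Pax3, which had 0 counts in WT there and so passed the filter only through induced libraries. The difference between cell types was not tested. The shares of all genes called are those given for the upstream list, with which this list shares T and Wnt3a. Of the ParaHox relatives of the family, Gsx2 alone was tested, in mESC, and it rose (log2 fold change 2.83, SE 0.77, edgeR adjusted p = 0.0032) from a summed ParaHox level of 0.0228 and 0.128 CPM in WT to at most 0.886 CPM. Gsx2 passed the filter on low counts only through induced libraries, which favours a rise, so no conclusion is drawn from this test. In single comparisons with WT it was not called in rCdx2-OE, R1, R13 and R23.

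Other lists are read against the share of all genes called, which was 26.7% in mESC, 44.5% on the mouse genome and 42.5% on the rat genome of RMES. Trophoblast stem cell markers rose in 5 of 7 tested genes and fell in 0 in mESC, on the mouse genome and on the rat genome of RMES alike. Embryonic stem cell markers fell in 2 of 8 and rose in 1 of 8 in mESC, and fell in 5 of 8 on the mouse and 5 of 6 on the rat genome of RMES. Intestinal targets of Cdx2 rose in 1 of 8 and fell in 0 in mESC, rose in 6 of 8 and fell in 2 on the mouse genome, and rose in 4 of 8 and fell in 2 on the rat genome. Krt20 on the mouse and Cdh17 on the rat genome had 0 counts in WT. They passed the filter on low counts only through induced libraries, which favours a rise. The summed level of the list was 91.3 and 93.2 CPM in WT against 21.3 and 21.7 CPM in induced libraries on the mouse genome. On the rat genome it was 36.7 and 37.7 against 29.4 and 33.8 CPM. Primitive endoderm markers rose in 4 of 5 in mESC and in 3 of 5 on each RMES genome. Fibroblast markers fell in 4 of 5 and rose in 0 in mESC, fell in 3 of 4 and rose in 1 on the mouse genome, and fell in 1 and rose in 1 of 3 on the rat genome. The lists share genes, Eomes, Tfap2c and Gata3 with the upstream list for trophoblast and Pou5f1 and Nanog for embryonic stem cells.

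Over the 18 induced mESC libraries, genes whose log2 level was among the most like that of Cdx1, of 11296 genes, were the calcium-binding gene S100a6 (Pearson r = 0.967), the heparan sulphate proteoglycan gene Gpc3 (0.965), the retinoid receptor gene Rxra (0.962) and the homeobox gene Rhox9 (0.959). Within the 14 mutant libraries the same coefficients were 0.690 to 0.885. For the counted Cdx2 they were Ylpm1 (0.902), the TGF-beta receptor gene Tgfbr1 (0.883), Metap1 (0.871), Birc6 (0.869) and Jade1 (0.867), with 0.899 to 0.911 in the mutants. The libraries share constructs, those of the intact proteins stood apart from the mutants, and counting was done in 2 runs by replicate. These coefficients are therefore descriptions. For Cdx4 the counts were too few.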

How the data were processed

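RNA-seq counts per gene were deposited by the authors, who, per their methods and notes, aligned stranded reads with STAR 2.7.0d, assigned RMES reads to mm10 or rn6 by the lower edit distance and counted them with featureCounts against Ensembl genes. Replicate 2 of mESC was counted in a separate run. ATAC and ChIP counts per peak were deposited for peaks called with MACS2 on merged libraries. From these counts, gene tests were run in edgeR 4.0.16 (R 4.3.3): TMM scaling, filterByExpr, glmQLFTest and Benjamini-Hochberg adjustment over all genes tested. Calls against WT needed an adjusted p under 0.05 and a log2 fold change over 1, other calls an adjusted p under 0.05. Standard errors are the log2 fold change over the root of F. DESeq2 1.42.0 was an alternative. The tests were checked on simulated counts. For peaks, each library was brought to the mean of its table's totals, 1 read was added and 2-fold was the threshold. Totals were 6109353 (WT) and 8277850 (mCdx2-OE) for ATAC and, for mCdx2-OE and rCdx2-OE, 6223794 and 5550846 for mESC ChIP and 4357448 and 3387074 for RMES ChIP. Named genes were the 3 members, genes starting within 200 kb of them, the 5 genes most like a member by Pearson r among those with a mean of 50 counts, and of each list up to 5 called genes with the largest absolute change or a named role. Genes, lists and comparisons were chosen with earlier results of these data known. Rat ChIP peaks were not used here. Of the genes most like Cdx1, 1 is not reported here. The planned correlation of Cdx1 with Cdx2 and its alternatives were not made because the libraries fall into separate sets.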

Additional observations from a re-analysis of the deposited data

Results flagged for a closer look

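The difference between the rat and the mouse response in RMES was -0.43 for Cdx1 (log2, edgeR adjusted p = 0.00043) and 1.16 for Cdx4 (log2, edgeR adjusted p = 0.022). Leaving out 1 library gave -0.65 to -0.28 for Cdx1. Both were picked out because a test of the difference itself passed. Cdx1 was lower in both induced libraries on both genomes, with a stronger decrease on the rat genome, and Cdx4 was lower in both induced libraries on both genomes, with a weaker decrease on the rat genome. In mCdx2-OE 26.7% of 60 Cdx4 counts lay on the mouse genome (95% Wilson interval 17.1 to 39.0) and in rCdx2-OE 40.0% of 45 (27.0 to 54.5), against 57.7% of 213 (51.0 to 64.2) and 49.2% of 244 (43.0 to 55.4) in WT. The mouse share of all counts moved from 56.1% and 56.3% to 50.7% and 50.6%, and its part in the difference was not tested.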

How the results depend on the processing

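The mESC replicate numbers are not stated to mark a shared culture or day, and same-numbered libraries did not all deviate together: over 45 pairs of conditions the deviations of same-numbered libraries correlated between -0.21 and 0.63, 22 of them over 0.1. In 7 of 7 mutants Cdx2 was higher and Cdx1 lower in replicate 1 (Cdx1 ratio 0.782 to 0.992). With the number as a replicate block, mCdx2-OE against rCdx2-OE called 1 gene in place of 3 (22 by DESeq2, 1 without a filter on low counts), Cdx2 in R3 against rCdx2-OE was -0.083, the mean Cdx1 log2 fold change from WT was -1.78, and change 3 on Cdx2 was -0.74 with an SE of 0.13 in place of 0.26 (edgeR adjusted p = 0.00054). At any fold the calls were 11959 in mESC and 13823 and 12069 on the mouse and rat genomes of RMES. Genes called for change 1 were 22 by DESeq2, 1 without the filter and 4 in the 7 mutants only (added after seeing the data), and for change 2 they were 1 by DESeq2. In the 7 mutants only, Cdx2 for change 1 was -0.14 and Cdx1 for change 2 was 0.043. Without 1 replicate number, change 3 called 1414 to 1424 genes, its effect was -0.57 to -0.28 on Cdx1 and -0.75 to -0.70 on Cdx2, change 1 and change 2 on Cdx2 ranged from -0.059 to 0.11 and from -0.12 to 0.016, and against rCdx2-OE Cdx2 ranged from -0.12 to 1.06 in R2, from -0.60 to 0.42 in R3, from -0.15 to 1.04 in R12 and from -0.85 to 0.13 in R13. Cdx1 in mCdx2-OE against rCdx2-OE was 0.058 to 0.48, and against rCdx2-OE it was lower in each mutant for either replicate. In RMES, leaving out a library gave -0.65 to -0.28 for the Cdx1 difference between genomes, 0.68 to 1.56 for that of Cdx4 and -4.87 to -4.84 for resident mouse Cdx2. ATAC peaks past 2-fold were 2 around Cdx1 and 2 around Cdx2 within 10 kb, 2 and 1 at a 4-fold threshold, and 1 ChIP peak of Cdx4 passed without scaling. In each case the cause was not tested. The decrease of Cdx1 and Cdx4 in RMES and of Cdx1 in mESC from WT, the latter over the mean of the constructs, kept direction and call in each alternative that had a test. Without 1 replicate number in every mESC condition no residual degrees of freedom remained against WT or rCdx2-OE, so those are values only. Scaled by the total of both genomes, resident Cdx2 was -4.57 on the mouse and -2.88 on the rat genome. Without WT replicate 1 or 2 and the 7 mutants only were alternatives chosen after seeing the data for mESC. Limits are the few libraries, the lone RMES library per construct, the single ATAC and ChIP libraries and, for Cdx4 in mESC, 0 to 13 counts per library.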

Other observations

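Flt3, a cytokine receptor gene next to Cdx2 that holds the upstream ChIP peak, was at 0.0425 and 0.0457 CPM in WT mESC, 2.51 to 3.12 CPM in the 4 libraries of mCdx2-OE and rCdx2-OE, and 0.0505 to 0.774 CPM in the 14 mutant libraries. Over the mean of the constructs its fitted log2 fold change was 3.57 (SE 0.37). Flt3 passed the filter on low counts in mESC only through induced libraries, which favours a rise, so no conclusion is drawn from that test. On the mouse genome of RMES Flt3 had 0 and 1 counts in WT and 217 and 292 counts in mCdx2-OE and rCdx2-OE. On the rat genome it rose from 1.68 and 2.00 CPM to 4.37 and 4.10 CPM (log2 fold change 1.20, SE 0.21, edgeR adjusted p = 8.5e-05). Flt3 was higher on both genomes in the induced libraries, in which resident Cdx2 was lower on the genome without the transgene. On the other genome resident Cdx2 cannot be read, and a relation with Flt3 was not tested. Of all genes, 13.2% were called higher in mESC over the mean of the constructs and 28.3% on each RMES genome. The ChIP peak inside Flt3 was not called in RMES.

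Of the genes whose start lies within 200 kb of a member's, edgeR called 1 higher and 1 lower of 8 tested around Cdx1 in mESC, 2 higher and 0 lower of 3 around Cdx2 and 0 of 6 around Cdx4, where 26.7% of all genes were called. Flt3 is among the 2 higher around Cdx2, with the limit of the filter given above. On the mouse genome of RMES it called 3 higher and 1 lower of 8 around Cdx1, 1 higher and 2 lower of 3 around Cdx2, with Cdx2 itself left out, and 2 higher and 0 lower of 6 around Cdx4, where 44.5% of all genes were called. The genes called lower around mouse Cdx2 were D5Ertd605e, at 7.68 and 8.28 CPM in WT against 2.98 and 2.06 CPM in mCdx2-OE and rCdx2-OE, and Pan3, at 97.2 and 98.5 against 46.7 and 44.5 CPM. On the rat genome Urad, which encodes an enzyme of urate breakdown, fell from 3.33 and 3.44 to 0.533 and 0.575 CPM (edgeR adjusted p = 3.1e-07).

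Some neighbours that the mean of the 9 constructs did not call were called with the intact proteins. Xist, the RNA of X inactivation and a neighbour of Cdx4, was at 4.24 and 4.71 CPM in WT mESC, 74.4 and 96.1 CPM in mCdx2-OE, 69.6 and 101.6 CPM in rCdx2-OE, and had means of 1.83 to 7.95 CPM in the mutants. It rose in mCdx2-OE and in rCdx2-OE (log2 fold change 4.25 in each, SE 0.21, edgeR adjusted p = 5.5e-11 and 4.8e-11), in comparisons that called 33.4% and 34.5% of genes. Slc6a7, beside Cdx1, had a mean of 13.8 CPM in WT, 3.64 CPM in mCdx2-OE, 3.59 CPM in rCdx2-OE and 7.26 to 9.76 CPM in the mutants, and it fell in mCdx2-OE and rCdx2-OE (log2 fold changes -1.91 and -1.92, SE 0.18, edgeR adjusted p = 8.8e-08 and 8.0e-08). These genes were named after their values were seen.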
